A study of Oryctolagus cuniculus with 9 samples.

Results

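The small leucine-rich proteoglycans and the large hyaluronan-binding proteoglycans were followed through 9 libraries of rabbit urethral tissue. The genes were taken by symbol from the deposited count table, and all 10 (DCN, LUM, BGN, FMOD, PRELP, OGN, ASPN, OMD, VCAN and ACAN) were found among its 28788 rows. The rule names the genes and has no threshold on a measured value, but they were chosen with earlier results of these data known. All 10 passed the filter on low counts. The series belongs to work on a layered hydrogel stent for repair of the urethra. Polyadenylated RNA was sequenced from 3 groups with the codes S6, S7 and S9, each with 3 libraries. All 9 libraries are labelled as urethral tissue of Oryctolagus cuniculus. The sources used here give no meaning for a code: treatment, time, strain, age and the control group are unknown, as is whether the number after a code names an animal. Libraries are written as code and number (S6_2), no group is taken as the control, and p-values measure the spread between these libraries, which may be technical.

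Small leucine-rich proteoglycans are secreted proteins with a core of leucine-rich repeats, most of which carry sugar chains. They bind collagen fibrils and set fibril width and spacing, and several of them also bind growth factors of the TGF-beta family. In the connective tissue wall of hollow organs they are made mainly by fibroblasts. They are sorted by sequence into class I (decorin, biglycan, asporin), class II (lumican, fibromodulin, PRELP, osteomodulin) and class III (osteoglycin, also called mimecan). Versican and aggrecan are far larger, carry many chondroitin sulfate chains and bind hyaluronan. Versican is a component of provisional wound matrix and of vessel walls, and aggrecan is best known from cartilage and tendon.

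The libraries held between 35127085 and 36832773 counts each, and the 10 genes took 0.423% to 0.989% of them. Markers of stratified epithelium were present in all libraries (KRT13 at 448 to 1689 CPM), whereas the uroplakins, which define urothelium, were low, with UPK1B at 1.23 to 22.4 CPM and UPK3B at no more than 0.0817 CPM. In 1 library of each group (S6_4, S7_3, S9_4) mitochondrial transcripts made up 0.243% to 0.419% of counts, against 0.910% to 1.52% in the other 6. Marker levels of other cell types varied with the groups, as did those of fibroblasts. The summed level of 12 leukocyte markers was 9083 to 16993 CPM in S6, 3109 to 6745 CPM in S7 and 571 to 974 CPM in S9. S100A8, S100A9 and S100A12, genes of neutrophils and other myeloid cells, made up most of this sum. Between S7 and S9 other markers of the list differed less or the other way. CD68 was at a mean of 67.8 and 26.1 CPM and TYROBP at 54.8 and 27.3 CPM. PTPRC was at 22.9 and 18.6 CPM, CD163 at 22.3 and 30.7 CPM and CSF1R at 48.0 and 63.7 CPM. In S6, PTPRC, CD163 and CSF1R were at 112, 141 and 135 CPM. In S9 against S7, 9 of the 12 had a negative log2 fold change and 3 a positive one. Of the 12, 6 were lower in S9 without overlap, beside 8.81% of all genes. The summed level of 10 smooth muscle markers was 2163 to 3829 CPM in S6, 3570.1 to 11674 CPM in S7 and 7046 to 13419 CPM in S9. The 12 fibroblast markers summed to 26345 to 42281 CPM in S6, 45918 to 102376 CPM in S7 and 36430 to 50462 CPM in S9. COL1A1, COL1A2 and COL3A1 made up most of this sum. COL6A3, DPT, PI16, THY1 and CDH11 also had their highest mean in S7. PDGFRA differed less, at means of 180, 184 and 209 CPM in S6, S7 and S9, as did FBLN1 at 1317, 1418 and 1366 CPM. MFAP5 (156, 418 and 439 CPM) and TCF21 (5.21, 19.8 and 50.6 CPM) had their highest mean in S9. For 8 endothelial markers the sums were 460 to 646, 586 to 972 and 608 to 1061 CPM. Tissue was sequenced in bulk, so fewer cells of a type and less RNA per cell cannot be told apart. The part that all these cells play in the differences below was not tested.

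Levels of different genes were compared by the deposited FPKM (a count scaled to gene length and library total). DCN, the gene of decorin, had the highest median of the 10 genes, 1756 FPKM over the 9 libraries, with a range from 913 to 2630.4. LUM followed at 568 FPKM (370 to 1999), BGN at 366 (274 to 783) and OGN at 144 (71.6 to 322). PRELP lay at 50.3 FPKM (33.1 to 98.9), FMOD at 20.9 (10.04 to 28.8), VCAN at 15.7 (5.22 to 48.0) and ASPN at 14.0 (4.39 to 339.8). OMD, at 2.26 FPKM (1.72 to 3.78), and ACAN, at 0.139 FPKM (0.0432 to 9.33), were lowest. Neighbours in this order overlapped in range, except PRELP with FMOD and ASPN with OMD. In each library DCN, LUM and BGN stood above 98% of the tested genes.

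**Figure D1:**
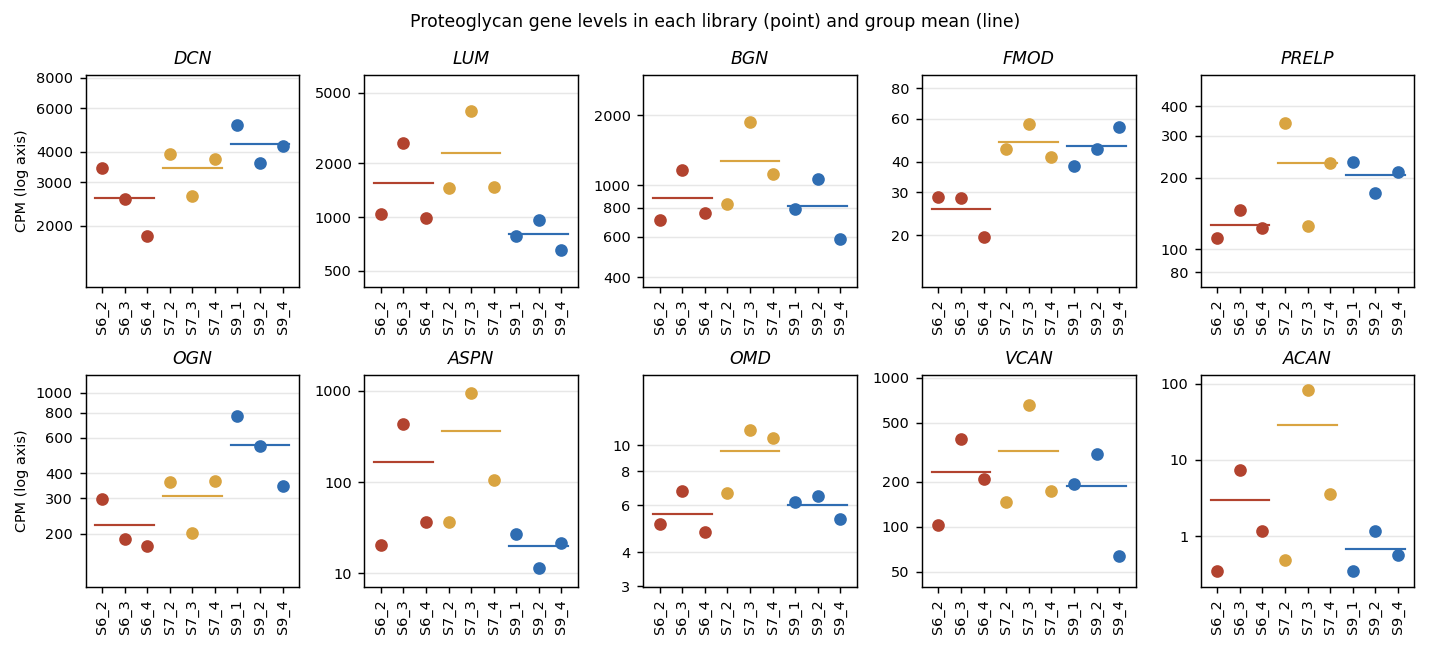
Level of each proteoglycan gene in CPM (vertical log axis, own scale per gene) in the 9 libraries (horizontal axis), red for S6, yellow for S7 and blue for S9, with a line at the mean of the 3 libraries of a group. FMOD is below 29 CPM in the S6 libraries and above 38 CPM in all others, and ASPN and ACAN are highest in S7_3 and next highest in S6_3.

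Below, the level of a single gene across libraries is given in CPM (a count scaled to the library total, with TMM factors), group means carry the SD of 3 libraries, and a gene is called where edgeR's quasi-likelihood test gave an adjusted p below 0.05. Among the class I genes, DCN, which encodes the main dermatan sulfate proteoglycan of collagen fibrils, was at 3423, 2567 and 1813 CPM in S6_2, S6_3 and S6_4. It was at 3918, 2640.2 and 3741 CPM in S7_2, S7_3 and S7_4, and at 5144, 3586 and 4216 CPM in S9_1, S9_2 and S9_4. All S9 libraries thus lay above all S6 libraries, while S7 overlapped both. BGN, the gene of biglycan, a close relative of decorin that can also act as a danger signal when set free from matrix, was at 708, 1161 and 762 CPM in S6, at 827, 1872 and 1112 CPM in S7 and at 789, 1062 and 585 CPM in S9. The groups overlapped, and S7_3 was highest. ASPN, which encodes asporin, a TGF-beta-binding relative of decorin, varied most among the small proteoglycans. It was at 20.2, 438 and 36.8 CPM in S6, at 36.3, 934 and 104 CPM in S7 and at 27.1, 11.4 and 21.6 CPM in S9. Its highest library held 81.9 times the level of its lowest, and the S9 libraries lay below all S7 libraries but not below all of S6.

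Of the class II genes, LUM, which encodes lumican, a keratan sulfate proteoglycan that regulates collagen fibril assembly, was at 1044, 2614 and 991 CPM in S6, at 1459, 3946 and 1479.7 CPM in S7 and at 783, 968 and 652 CPM in S9. The 3 S9 libraries were the lowest of the 9. FMOD, which encodes fibromodulin, a collagen-binding protein that also guides collagen crosslinking, was at 28.8, 28.4 and 19.8 CPM in S6, at 45.1, 56.8 and 41.9 CPM in S7 and at 38.6, 45.1 and 55.2 CPM in S9. Here the S6 libraries were the lowest, and S7 and S9 overlapped. PRELP, the gene of prolargin, which anchors basement membranes to the collagen below them, was at 112, 146 and 123 CPM in S6, at 339, 125 and 230.3 CPM in S7 and at 232, 172 and 212 CPM in S9. S9 lay above S6, and S7 held both the highest library and 1 within the range of S6. OMD, the gene of osteomodulin, was at 4.77 to 6.75 CPM in S6, at 6.63, 11.4 and 10.6 CPM in S7 and at 5.35 to 6.49 CPM in S9.

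OGN, the class III gene, encodes a small protein of the outer layers of vessels and of other fibrous tissue. It was at 298, 189 and 174 CPM in S6, at 360.1, 202 and 364 CPM in S7 and at 769, 548 and 345 CPM in S9. The S9 libraries lay above all S6 libraries, and S9_4 fell within the range of S7. Of the large proteoglycans, VCAN was at 103, 388 and 210.1 CPM in S6, at 146, 653 and 175 CPM in S7 and at 193, 308 and 63.4 CPM in S9, and the groups overlapped. ACAN was at 0.352, 7.39 and 1.18 CPM in S6, at 0.491, 81.8 and 3.54 CPM in S7 and at 0.344, 1.15 and 0.556 CPM in S9. In S7_3 this rested on 2800 counts, against 13 to 244 in the other libraries.

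**Figure D2:**
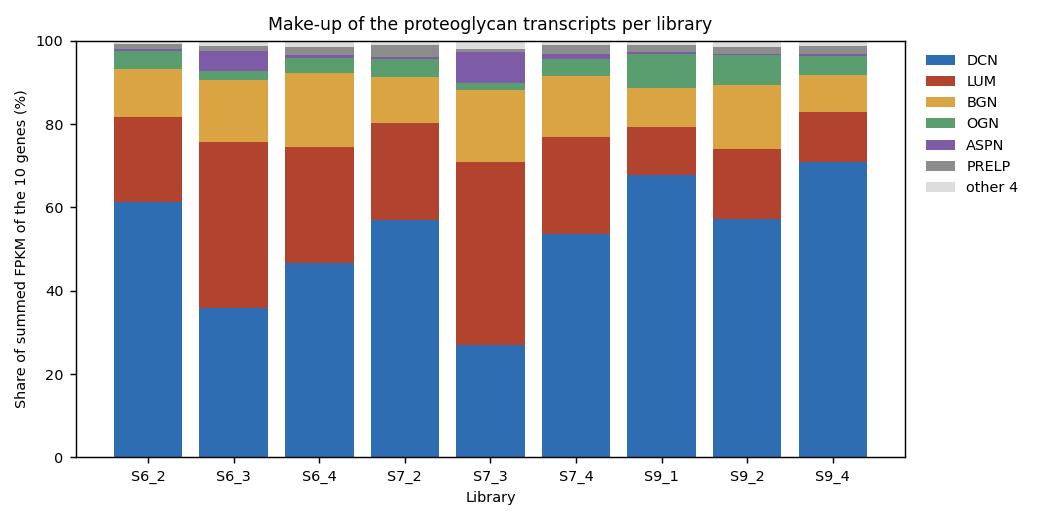
Share of each gene in the summed FPKM of the 10 proteoglycan genes (vertical axis, percent) in each library (horizontal axis). DCN makes up 57.2% to 70.8% in the S9 libraries, 61.3% in S6_2 and 26.9% in S7_3, where LUM reaches 44.0%.

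The make-up of the proteoglycan transcripts was described by each gene's share of the summed FPKM of the 10 genes. DCN made up 65.3% ± 7.15 (SD, n = 3) in S9, 47.9% ± 12.8 in S6 and 45.9% ± 16.5 in S7, and LUM made up 13.4% ± 3.06, 29.5% ± 9.84 and 30.2% ± 11.97. The DCN shares overlapped, since S6_2 held 61.3% and S9_2 57.2%, whereas the LUM shares of S9 (11.3% to 16.9%) were below those of all other libraries (20.5% to 44.0%). DCN exceeded LUM per length by 5.997, 3.38 and 5.90 times in S9_1, S9_2 and S9_4. The same ratio was 2.99, 0.896 and 1.67 in the S6 libraries and 2.45, 0.611 and 2.31 in those of S7. Every S9 library thus stood above every other library in this ratio, and in S6_3 and S7_3 LUM exceeded DCN. OGN exceeded ASPN per length by 16.6 to 50.0 times in S9, while in S6 the ratio was 15.3, 0.450 and 4.93 and in S7 10.3, 0.225 and 3.63. Of the further ratios taken, FMOD to LUM was also higher in each S9 library (0.0429 to 0.0780) than in any other (at most 0.0285). The ratios DCN to BGN, PRELP to LUM, DCN to VCAN and VCAN to ACAN overlapped between S9 and the other groups. For DCN to BGN, S9_2 was at 3.73 and S6_2 at 5.34. All these ratios were chosen after the values were seen and were not tested.

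Between S9 and S6, OGN and FMOD were higher in S9. OGN reached 554 ± 212 CPM in S9 against 221 ± 67.5 CPM in S6, a fold of 2.51 (1.33 on the log2 scale, SE 0.36, edgeR adjusted p = 0.0441). FMOD was at 46.3 ± 8.38 CPM against 25.6 ± 5.10 CPM, a fold of 1.80 (0.85 on the log2 scale, SE 0.21, edgeR adjusted p = 0.0349). These were 2 of 10 members called, both higher, where 12.4% of the 17102 tested genes were called, 6.02% higher and 6.34% lower. The other 8 were not called. Of these only DCN had an unadjusted p below 0.05 (3 of 10 members in all, beside 31.2% of genes); its difference on the log2 scale was 0.73 with an SE of 0.28 (edgeR adjusted p = 0.119). The difference was 0.69 for PRELP (SE 0.32, edgeR adjusted p = 0.172), -0.95 for LUM (SE 0.50, 0.226) and -3.04 for ASPN (SE 1.41, 0.179). BGN, OMD, VCAN and ACAN had edgeR adjusted p-values from 0.424 to 0.867. The libraries of the groups did not overlap for 5 of the 10, with DCN, FMOD, PRELP and OGN higher and LUM lower in S9, against 35.5% of all tested genes (18.6% higher and 17% lower). The median log2 fold change of the 10 was 0.0026, beside -0.011 over all tested genes, with 5 values on either side of 0.

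Both calls lay near the threshold. By edgeR FMOD lost its call without S6_3, S6_4, S9_1, S9_2 or S9_4 (adjusted p = 0.0546 to 0.0987) and OGN without S6_3, S6_4, S7_2, S7_4, S9_1 or S9_2 (0.0536 to 0.153). Over all genes edgeR called none without S9_1, 4 without S9_2 and 89 without S6_4, against 2115. Without both S6_3 and S7_3 the adjusted p was 0.0536 for FMOD and 0.0840 for OGN. The 6 libraries richer in mitochondrial counts gave 7 calls among all genes, and there FMOD had a log2 fold change of 0.55 (edgeR adjusted p = 0.136) and OGN of 1.43 (0.0740). With only S9 and S6 in the fit the adjusted p was 0.0551 for FMOD and 0.0611 for OGN. The class with low mitochondrial counts has 1 library of each group and allows no test. There, FMOD was at 55.2 CPM in S9_4 and 19.8 CPM in S6_4, and OGN at 345 and 174 CPM. With a term for this class in the fit of all 9 libraries both genes were called (edgeR adjusted p = 0.0433 for FMOD and 0.0184 for OGN). DESeq2 and limma-voom called both, and DCN as well (adjusted p = 0.0398 by DESeq2 and 0.0340 by limma-voom), where these tools called 4112 and 4061 of the 17102 genes.

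**Figure D3:**
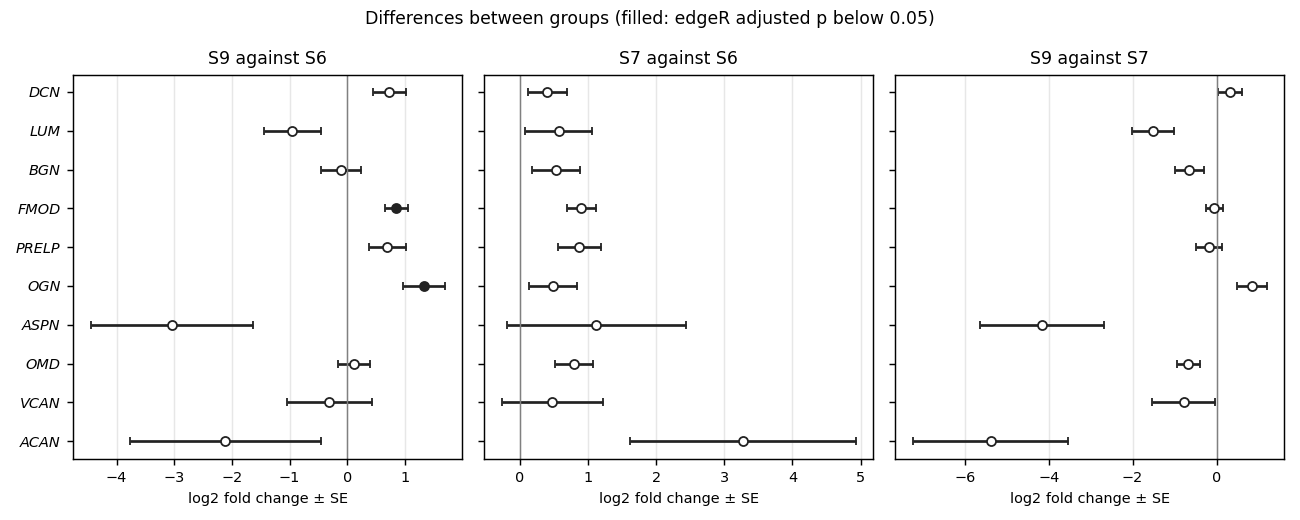
Log2 fold change (horizontal axis) with its standard error (bar) for each gene in the 3 comparisons, from edgeR, with filled points for an adjusted p below 0.05 (n = 3 libraries per group). FMOD (0.85) and OGN (1.33) in S9 against S6 are the filled points, and ASPN and ACAN have the widest bars.

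Between S7 and S6 each of the 10 genes had a positive log2 fold change, and none was called by edgeR, where 0.111% of tested genes were called. FMOD came nearest, with means of 47.9 ± 7.82 CPM (S7) and 25.6 ± 5.10 CPM (S6), a difference of 0.90 on the log2 scale with an SE of 0.21 (edgeR adjusted p = 0.106). It was the 1 member whose groups did not overlap, beside 21.2% of all genes (10.7% higher). For PRELP the difference was 0.87 (SE 0.32, edgeR adjusted p = 0.211) and for OMD 0.79 (SE 0.28, 0.199). FMOD, PRELP and OMD were the 3 with an unadjusted p below 0.05, beside 17.1% of all genes. DESeq2 and limma-voom each called FMOD (adjusted p = 0.00482 and 0.0445), where they called 1417 and 306 genes in all, and the limma-trend fits on FPKM called none. The median over the 10 was 0.68, beside -0.0097 over all tested genes. It was 0.36 without S7_3, where LUM (-0.06), ASPN (-1.21), VCAN (-0.53) and ACAN (-0.54) had a negative sign, and 0.71, with 10 positive values, without both S6_3 and S7_3. In the 6 libraries with high mitochondrial counts, which do not include S7_3, it was 0.20 and the same 4 genes were negative. The groups S9 and S7 are each compared with the same S6 libraries, so these differences are not independent of those between S9 and S6.

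Between S9 and S7 no member was called, as was no gene of the 17102 (0%) by edgeR, while 1575 genes (9.21%) had an unadjusted p below 0.05 and DESeq2 called 123. Of the 10, 8 had a negative log2 fold change, with a median of -0.66 beside 0.00052 over all genes, and 5 had an unadjusted p below 0.05. No other tool called a member. These 5 shared an edgeR adjusted p of 0.538. LUM averaged 801 ± 159 CPM in S9 against 2295 ± 1429.8 CPM in S7, a difference of -1.52 on the log2 scale (SE 0.50). The difference was -4.16 for ASPN (SE 1.48), -5.38 for ACAN (SE 1.85), -0.67 for OMD (SE 0.28) and, with the opposite sign, 0.84 for OGN (SE 0.35). LUM, ASPN and OMD did not overlap between the groups and were lower in S9, beside 17.2% of all genes in either direction and 8.81% lower. Without S7_3 no member had an unadjusted p below 0.05, the median was -0.35, and ASPN had a log2 fold change of -1.80. FMOD differed little (46.3 ± 8.38 and 47.9 ± 7.82 CPM, log2 fold change -0.05, SE 0.21). Over the 3 groups together edgeR's F test called none of the 10 (2.43% of genes called), with FMOD lowest at an adjusted p of 0.0623 and 5 of 10 at an unadjusted p below 0.05, beside 25.1% of all genes. DESeq2 called LUM, FMOD, OGN, OMD and ACAN there (3305 genes in all), limma-voom FMOD and OGN (2347 genes), and the limma-trend fits none.

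The 2 libraries numbered 3, S6_3 and S7_3, stood apart from the other 7 in several members, and were singled out after these values were seen, so the counts below are a description. LUM, BGN, ASPN, VCAN and ACAN were higher in both than in each of the other libraries, that is 5 of 10 members, against 8.3% of tested genes. No member was below the other 7 in both, as 5.75% of genes were. ASPN was at 438 and 934 CPM there and at most 104 CPM elsewhere, and LUM at 2614 and 3946 CPM and at most 1479.7 CPM. DCN, FMOD, PRELP, OGN and OMD did not share this. OGN was at 189 and 202 CPM, in the lower part of the range of the other 7 (174 to 769 CPM). By CPM S7_3 alone held the highest level of 7 of the 10 members, against 11.1% of tested genes. These include FMOD, for which S9_4 was close (55.2 against 56.8 CPM in S7_3) and was higher by FPKM (28.8 against 26.5). ADAMTS4, an aggrecan-cleaving protease, was at 17.2 and 41.3 CPM in S6_3 and S7_3 and at most 9.70 CPM elsewhere, a gene chosen after its values were seen. Of the 12 fibroblast markers 1, the collagen VI gene COL6A3, was higher in both libraries numbered 3 than in the rest. The sum of these markers, to which the collagen genes COL1A1, COL1A2 and COL3A1 contribute most, was 102376 CPM in S7_3, 42281 CPM in S6_3 and 26345 to 56243 CPM in the other 7. The list was mixed. In S7_3 the collagen genes were at 2.39 to 4.61 times the median of the other 7, and PDGFRA, DPT, THY1 and CDH11 at 1.15 to 2.35 times. FBLN1, PI16, MFAP5 and TCF21 were at 0.417 to 0.802 times. In S6_3 DPT, PI16, MFAP5, TCF21 and FBLN1 were at 0.220 to 0.872 times, and the rest at 1.02 to 1.56 times. The summed level of the chondrocyte markers was 50.5 CPM in S7_3, 38.6 CPM in S6_3 and 35.5 to 83.3 CPM elsewhere, and 1 of 7 tested, COL11A2 (1.45 and 2.37 CPM), was higher in both than in the other 7. COL2A1, the main cartilage collagen, was lowest in S7_3 (2.51 CPM), and MATN1 and COL9A1 stayed at or below 0.117 CPM in all libraries. S6_3 had the highest summed leukocyte markers of the 9 libraries (16993 CPM). There PTPRC was at 8.56, CD163 at 8.38 and ITGAM at 10.6 times the median of the other 7. In S7_3, with a sum of 6745 CPM, these were at 0.546, 0.551 and 1.64 times. The rest of the list was mixed in S7_3. S100A8 was at 4.61, S100A9 at 3.26 and CD68 at 1.90 times the median, but CSF1R at 0.295 and CD3E at 0.602 times. Each of the 10 smooth muscle markers was below the median of the other 7 in both libraries. They ran from 0.206 (MYH11) to 0.573 (TAGLN) times in S6_3 and from 0.268 (LMOD1) to 0.962 (ACTG2) times in S7_3. None was below all of the other 7 in both. Their sum was 2282 CPM in S6_3 and 3570.1 CPM in S7_3, and S6_4 was lower still (2163 CPM). S7_3 has few mitochondrial counts and S6_3 does not. Whether the number 3 marks a shared animal or day is unknown, and the part that either library's handling plays was not tested.

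Most of the small proteoglycan genes lie in 3 clusters of neighbouring genes, read here from the RefSeq gene order of the rabbit assembly mOryCun1.1, without coordinates because the build behind the counts is unknown. EPYC, KERA, LUM and DCN follow each other, as do FMOD, PRELP and OPTC, and ECM2, ASPN, OMD and OGN. VCAN lies beside HAPLN1, a link protein gene. BGN and ACAN have no near neighbour among the small leucine-rich, large hyaluronan-binding and other leucine-rich repeat genes. For the remaining lists, such as link proteins, only directly adjacent genes were looked at. Neighbours did not show 1 common pattern over the libraries. LUM and DCN, next to each other, differed in sign between S9 and S6 (log2 fold changes of -0.95 and 0.73, neither called), and in S7_3, where LUM was highest, DCN (2640.2 CPM) was below its median. ASPN and OGN, with only OMD between them, ran opposite ways in the libraries numbered 3. FMOD and PRELP, also adjacent, both had their 3 S6 libraries below all 3 S9 libraries. In S7_3, however, FMOD was at its highest by CPM (56.8, with 55.2 in S9_4), and PRELP at 125 CPM was within the S6 range. Of the other cluster members, KERA, the gene of keratocan, was at 1.39 to 7.22 CPM in 8 libraries and at 28.9 CPM in S7_4. ECM2 was at 24.6 to 67.2 CPM. EPYC was at no more than 2.07 CPM in any library.

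**Figure D4:**
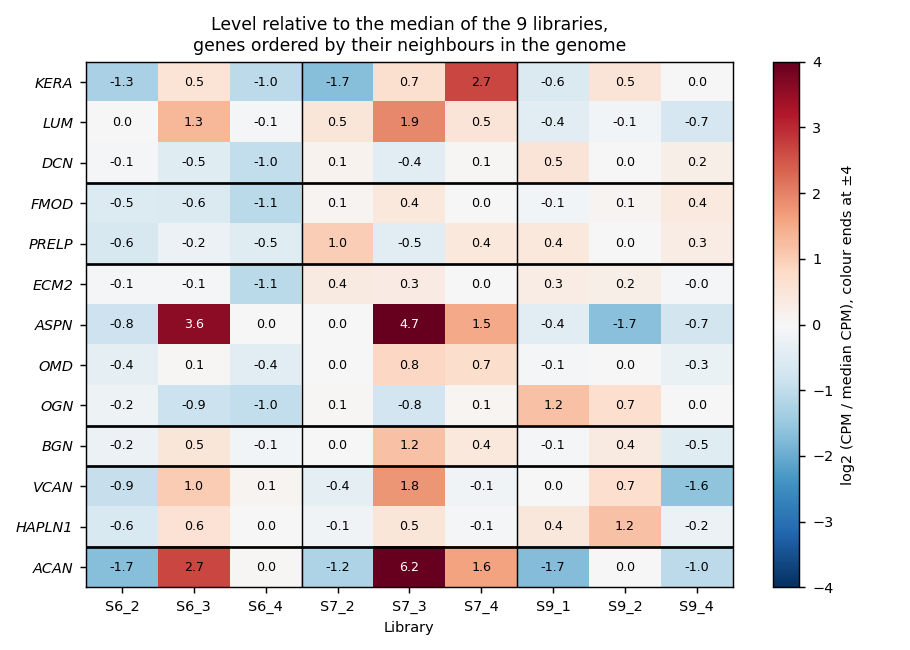
Level of each gene relative to its median over the 9 libraries (log2, colour and printed value), with genes (rows) ordered by genome neighbours between the horizontal lines and libraries in columns. ASPN and ACAN reach 4.7 and 6.2 in S7_3, while DCN and OGN, each in a cluster with a gene that is high there, are at -0.4 and -0.8.

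Other genes of proteoglycan biology were taken from lists on the synthesis, partners and cleavage of these molecules. In S9 against S6, 3 of 20 tested genes for chondroitin and dermatan sulfate synthesis were called, all higher, with a list median of 0.35 beside -0.011 over all genes. The counts of this and the following lists stand beside 12.4% of all genes called, 6.02% higher and 6.34% lower. CHST14, the sulfotransferase of dermatan sulfate, was at 41.9 ± 11.9 CPM in S9 against 24.5 ± 0.696 CPM in S6 (0.77 on the log2 scale, edgeR adjusted p = 0.0394). CHST12, a chondroitin sulfotransferase, was at 37.2 ± 2.75 against 22.7 ± 1.30 CPM (0.72, 0.0203), and CSGALNACT1, which starts chondroitin chains, at 65.1 ± 30.1 against 19.4 ± 8.39 CPM (1.75, 0.0491). For keratan sulfate, the chain type of lumican and fibromodulin, 1 of 8 genes was higher and 1 lower, with a median of -0.32. The higher was CHST1, at 12.2 ± 5.56 against 3.37 ± 0.764 CPM, and the lower CHST2, at 37.6 ± 2.39 against 68.0 ± 17.7 CPM, and both encode sulfotransferases. Of 9 tested genes for further leucine-rich repeat proteins of the matrix, CHAD, which encodes chondroadherin, was called, at 26.1 ± 3.60 against 7.83 ± 1.202 CPM, and higher (list median 0.36). Of 11 genes for hyaluronan and its partners, CD44, the main cell surface receptor for hyaluronan, was called, at 67.8 ± 10.5 against 177 ± 65.7 CPM, and lower (median -0.041). CD44 is also carried by leukocytes, whose markers were lower in S9 in the same comparison (11 of 12 called). Whether any cell type bears on the CD44 difference was not tested. No protease of the ADAMTS group that cleaves aggrecan and versican was called of 7 by edgeR. Of these 2 had an unadjusted p below 0.05, beside 31.2% of all genes, and DESeq2 called 2 (4112 genes in all). ADAMTS1, the most abundant, was at 224 ± 51.7 against 129 ± 26.4 CPM (edgeR adjusted p = 0.0569), and ADAMTS9 at 20.2 ± 10.3 against 22.5 ± 3.56 CPM.

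Among heparan sulfate and cell-surface proteoglycans, 6 of 18 tested genes were called, all higher in S9, with a list median of 0.33. SDC2, the gene of syndecan-2, was at 172 ± 26.0 against 90.5 ± 8.06 CPM (0.93 on the log2 scale, edgeR adjusted p = 0.0164). CSPG4, a proteoglycan of pericytes and smooth muscle also known as NG2, was at 82.0 ± 12.7 against 26.0 ± 3.38 CPM (1.65, 0.0227). The glypican genes GPC6 (19.4 ± 7.37 against 5.55 ± 0.139 CPM) and GPC4 (63.7 ± 9.49 against 36.7 ± 6.90 CPM) and HSPG2, the gene of perlecan in basement membranes (859 ± 248 against 398 ± 76.3 CPM), were also higher. Of the 10 smooth muscle markers 8 were called higher in this comparison, as were 2 of 12 fibroblast markers (MFAP5 and TCF21), 2 of 8 endothelial markers and 1 of 10 markers of urothelium and squamous epithelium. Of 7 chondrocyte markers edgeR called none, and 1 had an unadjusted p below 0.05, beside 31.2% of all genes. DESeq2 and limma-voom called 1 each (4112 and 4061 genes in all). Without both libraries numbered 3 the calls among heparan sulfate and cell-surface proteoglycans were 3 higher and 1 lower. Those for chondroitin and dermatan sulfate synthesis were then 1 higher. Over all 6 lists 13 of 73 tested genes were called between S9 and S6, beside the 12.4% of all genes. That count was 8 without S7_4, 6 without S6_3 and 0 without S6_4, S9_1 or S9_2, or in the 6 libraries with high mitochondrial counts. In S7 against S6 edgeR called none of the 73, while 27 had an unadjusted p below 0.05 (17.1% of all genes), DESeq2 called 11 (1417 genes in all) and limma-voom called SDC2 (306 in all). In S9 against S7 none of the 73 was called by any of these tools. By edgeR 10 had an unadjusted p below 0.05 (9.21% of all genes).

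**Figure D5:**
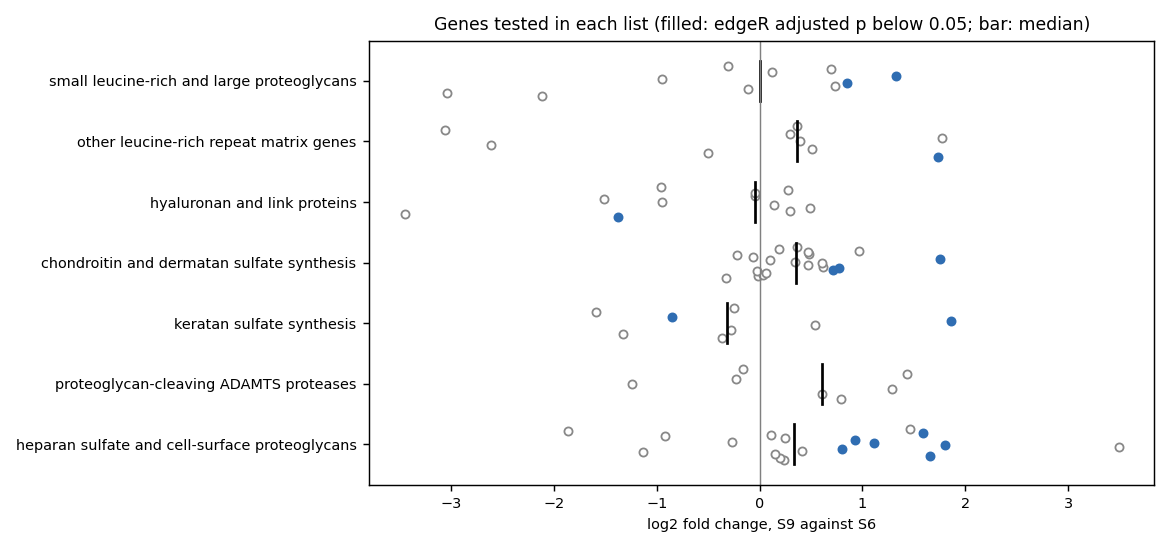
Log2 fold change of S9 against S6 (horizontal axis) for each tested gene of the lists (rows), with filled points for an edgeR adjusted p below 0.05 and a bar at the list median. All 6 filled points among heparan sulfate and cell-surface proteoglycans lie above 0.7, and the 10 members spread from -3.04 to 1.33.

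For the 2 called genes, the genes with the most similar course were sought among 10687 others with a symbol and a mean of at least 5 CPM, by Pearson's r of log2 CPM over the 9 libraries. OGN was closest to ARHGAP20 (r = 0.984), UPK1B (0.978) and KANK1 (0.976), and FMOD to NXPH3 (0.947), DNM1 (0.945) and NFATC2IP (0.938). By the same measure, and chosen after the values were seen, ASPN was closest to THBS2 (0.970), the gene of thrombospondin-2, and ACAN to ARF4 (0.978) and CCN4 (0.976). These are the highest of many values over few libraries that share groups, so they describe the libraries and carry no p-value.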

How the data were processed

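The authors deposited raw read counts per gene and FPKM values for the same 9 libraries, per the file headers. Per the submitters' processing notes, fastp, HISAT2 and HTSeq were used. No version, genome build, annotation or strand setting is stated in the sources used here. All table columns were mapped to samples by name. Genes were kept by filterByExpr (minimum count 10, minimum total 15), leaving 17102. A single model of the 3 groups was fitted to TMM-scaled counts by robust quasi-likelihood (edgeR 4.0.16, R 4.3.3), with 6 residual degrees of freedom. P-values were adjusted by Benjamini-Hochberg over all tested genes of a comparison. The biological coefficient of variation was 41.9%. Overlapping genes cannot be told apart in the counts.

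The proteoglycan genes and the lists were chosen with earlier results of these data known. All 10 are named. From each other list up to 5 called genes with the smallest p were named, or the 2 most abundant where none was called. CHST11, HAPLN3, SPOCK3, COMP and CD3G were not analysed here. Alternatives were other scalings and filters, DESeq2 1.42.0, limma 3.58.1 (voom with sample weights, and trend on log2 FPKM with pseudocounts 1 and 0.1), a replicate block, a term for libraries under 0.6% mitochondrial counts, the 6 other libraries alone, only the groups compared, and each library left out. Leaving out both libraries numbered 3 was added after seeing the data.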

Additional observations from a re-analysis of the deposited data

How the results depend on the processing

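The 2 members called between S9 and S6 remained 2, FMOD and OGN, with DESeq2 size factors, upper-quartile scaling, both filters, log2(FPKM + 0.1) and the mitochondrial term. The count was 1 with log2(FPKM + 1), and 0 with only the 2 groups, without both libraries numbered 3 and in the 6 libraries of high mitochondrial share. Leaving out each library gave 0 to 2. Of 22 alternatives FMOD was called in 13 and OGN in 11, positive in each. Between S7 and S6 DESeq2 and limma-voom each called 1 member, against 0. Over 3 groups DESeq2 called 5, limma-voom 2 and the mitochondrial term 1, against 0. No replicate block is set by the design: same-numbered libraries correlated at 0.138, 0.132 and 0.0226 between S6 and S7 in their deviations from group means, at -0.0649 and 0.127 between S6 and S9 and at 0.0640 and 0.0201 between S7 and S9. The 3 highest correlations of all pairs (0.138, 0.132 and 0.127) joined libraries of the same number. Between S6 and S7, however, S6_4 correlated better with S7_3 (0.0445) than with S7_4 (0.0226). With the replicate block 0 members, none of the 73 genes of the other proteoglycan lists and 16 genes in all were called between S9 and S6.

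Changes of sign touched only uncalled genes. In S9 against S6, BGN was at 0.12 (limma-voom), 0.19 (replicate block) and 0.13 (without both libraries numbered 3), and -0.35 to 0.16 with single libraries left out. VCAN was at 0.042, 0.25 and 0.26 in these 3 settings, at 0.030 in the 6 libraries, and -0.86 to 0.28 with single libraries left out. ACAN was at 0.96 and ADAMTS9 at 0.34 with the replicate block, and ADAMTS9 at 0.055 in the 6 libraries and -0.66 to 0.083 with single libraries left out. In S7 against S6 the 6 libraries gave -0.32 for LUM, -1.70 for ASPN, -0.61 for VCAN and -0.94 for ACAN. With single libraries left out, from without S7_3 to without S6_3, LUM ran from -0.062 to 1.18, ASPN from -1.21 to 3.65, VCAN from -0.53 to 1.06 and ACAN from -0.54 to 5.22. In S9 against S7 FMOD was at 0.016 with both FPKM pseudocounts, 0.19 with the replicate block, 0.079 without both libraries numbered 3 and -0.18 to 0.096 with single libraries left out. PRELP was at 0.00046 with log2(FPKM + 0.1) and -0.46 to 0.21 with single libraries left out. VCAN was at 0.64 in the 6 libraries, 0.23 without both libraries numbered 3 and -1.34 to 0.24 with single libraries left out. The cause was not tested.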
